A study of Drosophila melanogaster with 2 samples.

Results

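Ribosomal RNA copies, the ribosomal protein gene RpL28 and the small nucleolar RNA snoRNA:Or-CD12, which lies inside RpL28, were followed in RNA of *Drosophila melanogaster* ovaries. The 8 genes were chosen by name from the authors' lists of entries that differed between genotypes: CR40571, CR40572, CR40581, CR40582, CR40596, CR41602, RpL28 and snoRNA:Or-CD12. They are 8 of 297 genes, transposon insertions and piRNA cluster strands in these lists and make up 20 of 537 entries. Membership of the lists rests on the measured difference itself, so the directions and sizes below are descriptions and were not tested. The ovaries came from flies heterozygous for z3-5967, a mutation of CG5508 (minotaur; the strain labels write GC5508), and from flies homozygous for it, all 3 to 5 days old and kept at 25 °C. No further allele or agent is given in the labels, and both genotypes carry the mutation. The study's title ties minotaur to the biogenesis of piRNAs, the small RNAs that silence transposons. Each genotype was sequenced as 1 library, no difference has a replicate check, and each interval in parentheses covers counting error alone (exact, 95%).

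In flies the genes for 18S, 5.8S, 2S and 28S ribosomal RNA lie in long tandem arrays on the X and Y chromosomes, and each unit is read as a single precursor by RNA polymerase I. Many further copies are truncated or interrupted, and most share their sequence with the working copies, so a short read often matches several of them. RpL28 encodes a protein of the large ribosomal subunit. Small nucleolar RNAs of the C/D type guide the methylation of other RNAs, chiefly ribosomal RNA, and many are cut out of the introns of ribosomal protein genes; the letters Or mark orphans, for which no target was known when they were named. Total RNA was primed with not-so-random primers, per the labels' protocols. As background, such a pool leaves out primers that match ribosomal RNA. How far these primers set the level of the ribosomal RNA copies was not tested.

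The authors counted reads in 2 ways, once with uniquely mapped reads and once with reads of up to 10 mappings. From their raw and adjusted p and the rank, the tested entries were inferred to number 21957 with unique reads and 23690 with up to 10 mappings. Each total is the most frequent whole number obtained, given by 35 of 143 and 81 of 394 listed entries. With unique reads, 0.515% of tested entries were listed as higher in the homozygous library, among them 7 entries of 2 members, RpL28 and its snoRNA. In the lower list, with 0.137% of tested entries, stood 2 members, CR41602 and CR40596. With up to 10 mappings, 1.55% of tested entries were listed as higher, among them 11 entries of 6 members: RpL28, its snoRNA and the 4 other ribosomal RNA copies. The lower list of that count, with 0.114% of tested entries, held 0 members. The members' shares cannot be read against these backgrounds, because the lists chose the members. In the lists of unique reads the listed features held 85648 homozygous and 67961 heterozygous reads, and by the authors' size factors the homozygous library was the deeper one, by 1.34 times. CG5508 itself was in none of the lists, so they hold no level of it with which to check the genotypes.

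**Figure D1:**
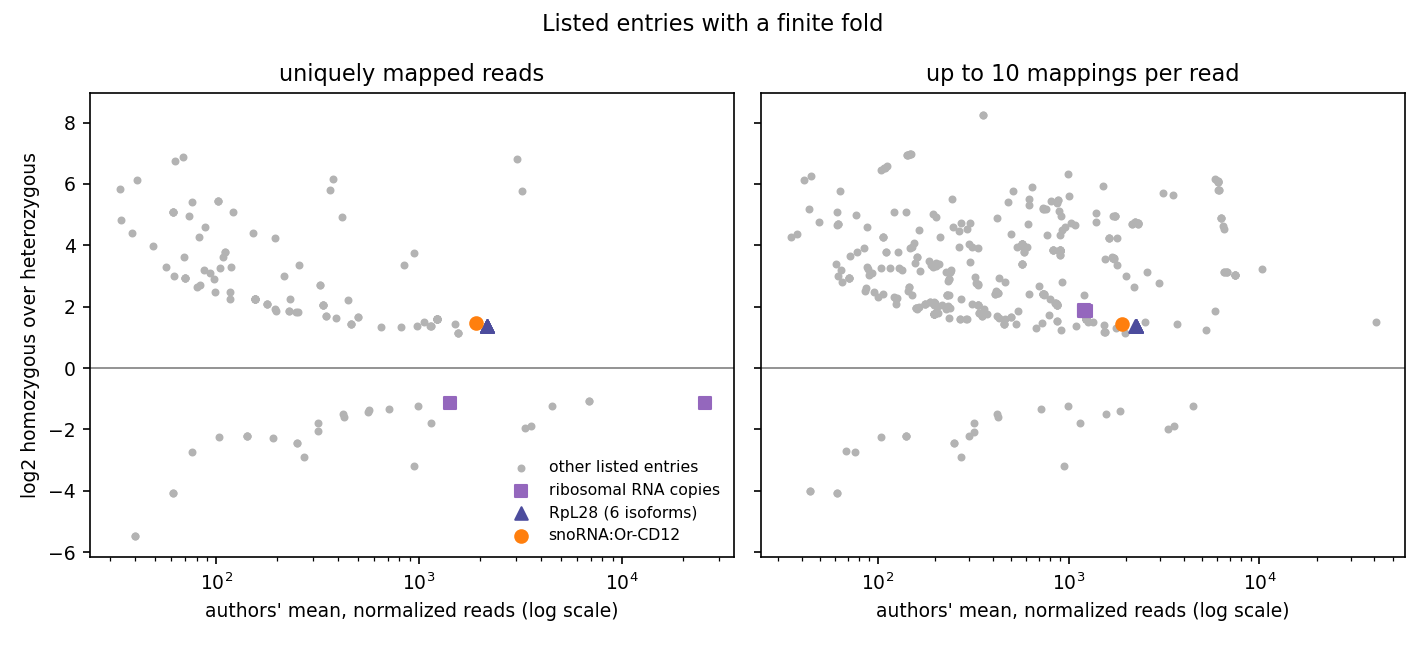
Authors' mean over both libraries in normalized reads (horizontal, log scale) against log2 of homozygous over heterozygous (vertical) for each listed entry with a finite fold, with unique reads on the left and up to 10 mappings on the right. Squares mark ribosomal RNA copies, triangles RpL28 and the disc snoRNA:Or-CD12; the 2 copies on the left lie below 0, CR41602 as the entry with the highest mean of its panel, and the 4 copies on the right form a tight group above 0.

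CR41602 and CR40596 were the ribosomal RNA copies lower in the homozygous library. By mean they ranked 1 and 11 among the 80 features listed with unique reads. CR41602 (FBgn0085813) has the type ribosomal RNA in the lists. The Ensembl annotation of dm6 names it an 18S ribosomal RNA pseudogene, on X from 23211192 to 23213166. It held 34991 normalized reads in the heterozygous and 16043 in the homozygous library. Its level in the heterozygous library was 2.18-fold that in the homozygous one (2.14 to 2.22), with an adjusted p of 0.0319 in the authors' deposited table. No other of the 80 features listed with unique reads had as high a mean. The next was the mucin-related gene Mur2B, with 9350 heterozygous and 4422 homozygous normalized reads. Unique reads are unique within the genome build used for mapping. Whether reads counted for CR41602 came from other 18S copies was not tested, so its level may not be that of the pseudogene. Among the features listed as lower, CR41602 alone took 30257 of 60485 heterozygous reads (49.6% to 50.4%) and 18553 of 33406 homozygous reads (55.0% to 56.1%). Of the reads of all listed features it took 44.5% in the heterozygous (44.1 to 44.9) and 21.7% in the homozygous library (21.4 to 21.9). That total includes the features listed because they were higher in the homozygous library, and may count reads of the snoRNA under RpL28 as well, so the direction of the share depends on which features are summed.

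CR40596 (FBgn0085753) is named a 28S ribosomal RNA pseudogene in dm6, where it lies on the separate rDNA scaffold from 16936 to 22940. The 2 exons of its transcript CR40596-RB there, of 2650 and 125 bases, are set apart by a gap. The transcripts listed for CR40596 and CR41602 are not in dm6, so the spans counted by the authors may differ from the dm6 ones. Whether reads counted for CR40596 came from other 28S copies was likewise not tested. CR40596 held 1958 normalized reads in the heterozygous and 892 in the homozygous library, a 2.19-fold fall (2.03 to 2.37). It was the last of the 143 entries listed with unique reads. Its adjusted p of 0.0933 in the authors' deposited table was the largest among them. Only Mur2B, at 2.11-fold, fell by less than these copies among the 23 features listed as lower, whose median fall was 3.47-fold.

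The 2 copies fell by the same factor within counting error, although CR41602 held many times more reads. CR40596 had 1693 heterozygous reads against 30257 for CR41602, which is 5.30% of the reads of both (5.06 to 5.55). In the homozygous library the counts were 1032 and 18553, or 5.27% (4.96 to 5.59). The nearest other lower genes in level over both libraries were Mur2B and the chorion gene Cp15 for CR41602, at distances of 2.66 and 3.57 on the log2 scale, so no listed gene lay close to it. For CR40596 they were CG14309 and CG13083, at 0.78 and 0.81. With 2 libraries such nearness describes levels alone. By gene identifier in dm6, 1 of 2 18S and 1 of 10 28S ribosomal RNA pseudogenes were listed. Of the 3 18S and 2 28S ribosomal RNA genes not annotated as pseudogenes, 0 were matched. The other listed ribosomal RNA copies, described below, have identifiers that dm6 lacks. The 0 therefore does not show whether genes not annotated as pseudogenes differed or were counted by the authors at all.

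**Figure D2:**
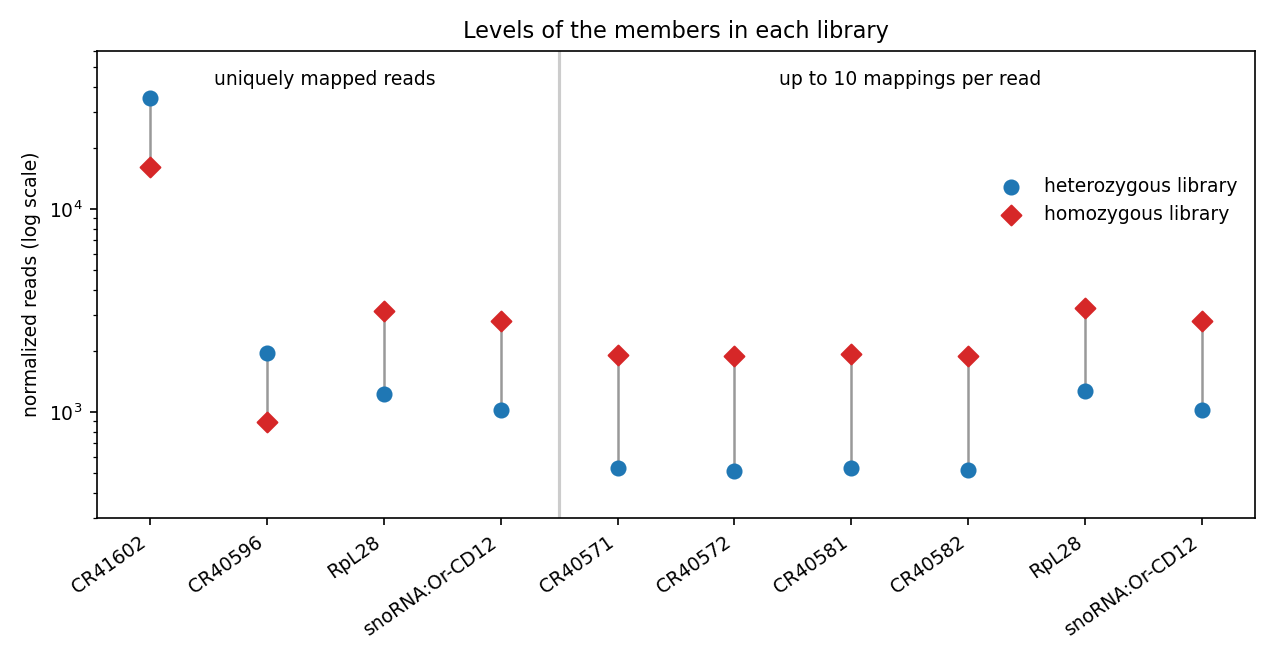
Normalized reads (log scale) of each member in the heterozygous library (discs) and the homozygous library (diamonds), with unique reads to the left of the grey line and up to 10 mappings to its right; for RpL28 the isoform with the highest mean is shown. CR41602 and CR40596 are lower in the homozygous library, from 34991 to 16043 and from 1958 to 892, and each other pair of points runs the opposite way.

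The ribosomal RNA copies higher in the homozygous library were listed with up to 10 mappings only, and none of them was in a list of unique reads. CR40571, CR40572, CR40581 and CR40582 are typed as ribosomal RNA in the lists. Their identifiers, FBgn0085746, FBgn0085747, FBgn0085750 and FBgn0085751, had no match in the dm6 annotation, so no position or kind of ribosomal RNA is given for them. In the lists with up to 10 mappings the columns for single libraries are headed with names that match no sample here, and they were not used. The values per library below are those implied by the authors' mean and fold.

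CR40572 came out at 1891 homozygous and 515 heterozygous normalized reads, a 3.67-fold rise in the authors' deposited table. CR40582 followed with 1889 and 518 and a 3.65-fold rise, and CR40571 with 1912 and 527 and a 3.63-fold rise in the same authors' deposited table. CR40581 had the highest level of the 4, 1923 and 532 normalized reads, and the smallest rise in the authors' deposited table, 3.61-fold. The homozygous values of these copies lay within 1.78% of each other and the heterozygous values within 3.38%, so the copies can hardly be told apart by level.

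The same values correspond to whole reads, 2189 to 2228 in the homozygous and 444 to 459 in the heterozygous library. On these reads the intervals of the 4 rises ran from 3.27 to 4.01 for CR40581 and from 3.32 to 4.08 for CR40572 and overlap almost entirely. The authors' adjusted p ran from 8.70e-05 to 0.000109. By raw p the copies stood at places 226 to 230 of the 394 listed entries, next to each other apart from another entry among them. That entry was CR40503, another copy typed as ribosomal RNA, with 2190 and 449 reads and a 3.63-fold rise in the authors' deposited table. These 5 were all entries of that type listed with up to 10 mappings. Reads with several mappings can be shared between near-identical copies. Whether these copies hold the same reads was not tested, so the value of each is uncertain and they are not taken as separate measurements.

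**Figure D3:**
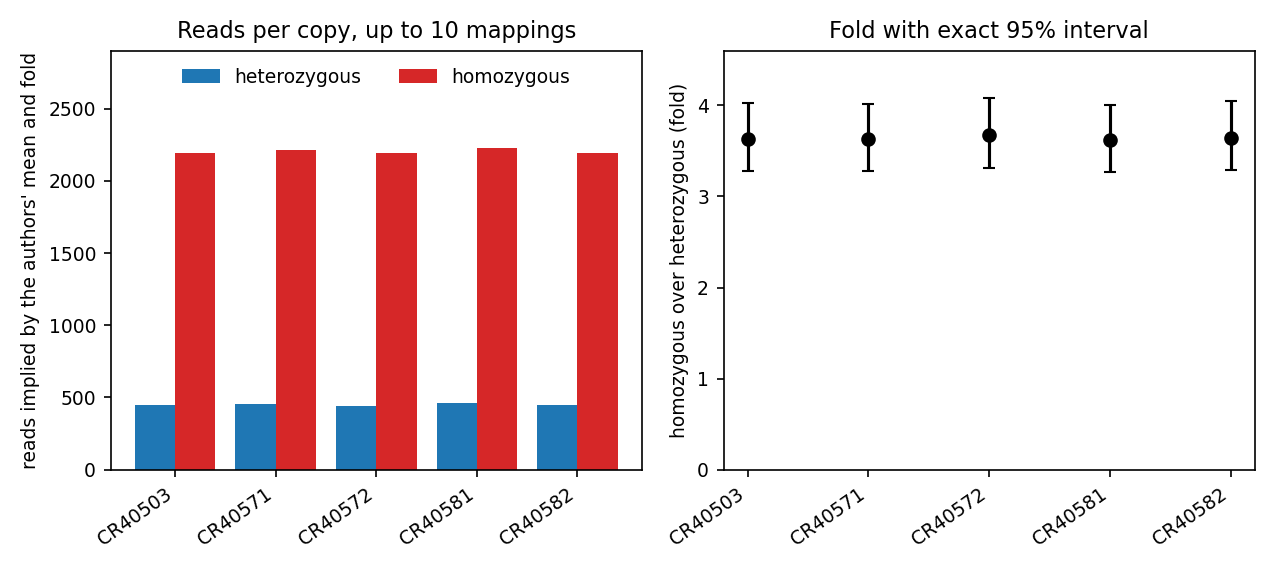
Left, reads implied by the authors' mean and fold for the 5 ribosomal RNA copies listed with up to 10 mappings, in the heterozygous (blue) and homozygous (red) library. Right, homozygous over heterozygous fold with its exact 95% interval, which covers counting error only; the 5 folds lie between 3.61 and 3.67 and their intervals overlap.

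Copies lower with unique reads and copies higher with up to 10 mappings were thus different genes, and no copy stood in both counts. CR41602 and CR40596 were in neither list with up to 10 mappings, where the largest adjusted p was 0.0985, and their level in that count was not analysed here. No gene's direction is therefore shown to turn with the count used. The authors' p also depended on more than an entry's reads: snoRNA:Or-CD12 had the same reads in both counts, and in the authors' deposited table a raw p of 7.49e-06 with unique reads and of 5.91e-05 with up to 10 mappings.

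RpL28 (FBgn0035422) lies on 3L from 3220911 to 3222960 in dm6, on the minus strand. It held 1220 normalized reads in the heterozygous and 3125 in the homozygous library, a 2.56-fold rise (2.39 to 2.75) with an adjusted p of 0.00683 in the authors' deposited table. It was the only one of 92 cytoplasmic ribosomal protein genes in the lists with unique reads or with up to 10 mappings, and 0 of 73 mitochondrial ones were listed. Of 32 genes of ribosome biogenesis and 8 Uhg genes, which are hosts of snoRNAs, 0 were listed. For comparison, 0.515% of all tested entries were listed as higher and 0.137% as lower with unique reads. With up to 10 mappings the shares were 1.55% and 0.114%. Beside such shares these counts do not set RpL28 apart from other ribosomal genes. Levels of the unlisted genes were not analysed here, so they cannot be called unchanged.

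SnoRNA:Or-CD12 (FBgn0086068) lies within RpL28 on the same strand, from 3221350 to 3221427, and is 78 bases long. It held 1022 normalized reads in the heterozygous and 2805 in the homozygous library, a 2.74-fold rise (2.55 to 2.96) with an adjusted p of 0.00279 in the authors' deposited table. Per kilobase of its own length this is 13107 and 35963 normalized reads. It was the only one of 257 genes named as snoRNA in the lists, and 0 of 295 tRNA and 0 of 32 snRNA genes were listed. Among all tested entries, 0.515% were listed as higher with unique reads and 1.55% with up to 10 mappings. Beside such shares these counts do not set the snoRNA apart. Besides snoRNA:Or-CD12, the type snoRNA held scaRNA:mgU4-65, a guide RNA of the Cajal body, singled out after its values were seen. With unique reads it rose from 13.9 to 111 normalized reads, 7.98-fold (4.41 to 15.8). That rise rests on 12 heterozygous and 128 homozygous reads, with an adjusted p of 0.0801 in the authors' deposited table. The nearest other higher features in level were the same for RpL28 and the snoRNA, the titin-like muscle gene bt, at 0.65 and 0.40 on the log2 scale, and the minus strand of piRNA cluster 11, at 0.77 and 0.48.

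In dm6 the snoRNA lies in an intron shared by all 6 listed isoforms of RpL28, and 0 of its bases fall in an exon of any of them. The listed values still followed the whole span of an isoform and not its exons. RpL28-RA, with a first exon of 34 bases and 547 exon bases, and RpL28-RG, with a first exon of 338 bases that shares no base with it and 851 exon bases, had the same 3614 homozygous and 1055 heterozygous reads. RpL28-RB and RpL28-RF had these reads too, and the further 203 bases that RpL28-RB spans at the 3′ end added 0 reads in either library.

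The shorter spans held fewer reads. RpL28-RE, which starts further downstream, had 3598 homozygous and 1048 heterozygous reads, and RpL28-RD, the shortest at 1182 bases, had 3594 and 1047. In 14 of 14 pairs of RpL28 isoforms with nested spans the longer one held at least as many reads in each library. Among the 17 other genes with several isoforms listed with unique reads, this held in 27 of 27 nested pairs. Of 19 pairs of their isoforms with equal spans, 18 had identical reads, and each of these 18 had different exons. Whether the authors meant to count intronic reads was not given in the sources used here.

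If all reads of the snoRNA were also counted for RpL28, they made up 83.8% of its heterozygous reads (81.4 to 86.0) and 89.8% of its homozygous reads (88.7 to 90.7). What then remains of RpL28 is 171 heterozygous and 370 homozygous reads, or 198 and 320 normalized reads. This remainder was 1.62-fold higher in the homozygous library (1.35 to 1.95), below the interval of the snoRNA. Per kilobase, the remainder stood at 100 normalized reads in the heterozygous and 162 in the homozygous library, far below the snoRNA in both. The remainder holds exons, introns and 4 other snoRNAs of RpL28 together, so it is not a level of the messenger RNA. Nearly all of it lay in the span of RpL28-RD, which held 163 and 350 reads beside those of the snoRNA, with a 1.61-fold difference (1.33 to 1.95).

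**Figure D4:**
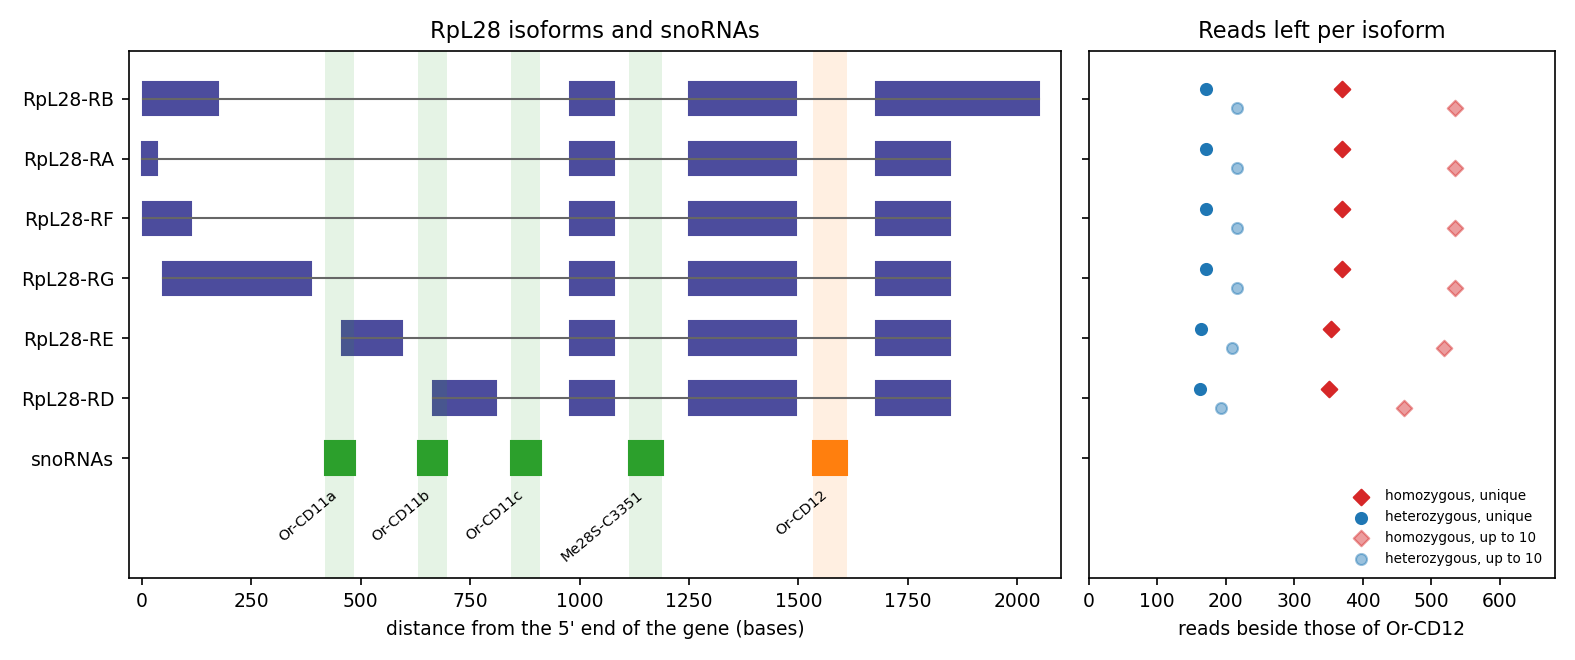
Left, the 6 listed isoforms of RpL28 by distance from the 5′ end of the gene in bases, with exons as boxes, introns as lines, and the 5 snoRNAs annotated inside it below. Right, reads of each isoform beside those of snoRNA:Or-CD12, in the homozygous (diamonds) and heterozygous (discs) library, dark for unique reads and pale for up to 10 mappings; the 4 longest spans have the same values, 370 and 171 with unique reads.

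The other snoRNAs inside RpL28 are snoRNA:Me28S-C3351, named for a methylated position of 28S ribosomal RNA, and the orphans snoRNA:Or-CD11a, snoRNA:Or-CD11b and snoRNA:Or-CD11c of 67 bases each. None of these 4 was listed. Counting up to 10 mappings added 0 reads to snoRNA:Or-CD12, which kept 3244 homozygous and 884 heterozygous reads, but added 165 and 45 reads to the longest isoforms of RpL28. RpL28-RD gained 110 and 30 reads, and the 207 bases by which RpL28-RE reaches beyond it gained 55 and 15. Both totals for the longest isoforms are exactly 3 times those of this segment. Of the Or-CD11 snoRNAs, a has its 3′ part in this segment, c lies within the span of RpL28-RD, and b crosses the border between them.

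With unique reads that segment had held 4 homozygous reads and 1 heterozygous read. The 55 and 15 added reads correspond to a 2.73-fold higher level in the homozygous library (1.52 to 5.20). This wide interval contains the 2.74-fold of snoRNA:Or-CD12 and also the 1.62-fold of the remainder of RpL28 with unique reads. The added reads cannot be assigned to the Or-CD11 snoRNAs from the lists, and the sequences of these snoRNAs were not used here. The 456 bases upstream of RpL28-RE that RpL28-RF also spans gained 0 reads and held 16 and 7 in both counts. With the added reads RpL28 as a whole stood at 2.56-fold in the authors' deposited table, as with unique reads. Its adjusted p there was 0.0108. The remainder without snoRNA:Or-CD12 stood at 1.84-fold (1.57 to 2.17). That interval takes each read as counted once. If added reads were counted at several places in RpL28, which was not tested, it is too narrow.

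Some markers of other cell types were also in the lists. Of 16 muscle markers, 5 were listed as higher with unique reads, with a summed level of 2610 normalized reads in the heterozygous and 6935 in the homozygous library. Of 8 fat body markers, 4 were listed as higher, at 49.7 and 727 in sum, and of 7 hemocyte markers 1, the collagen gene Cg25C, at 250 and 670. Of 17 follicle cell markers, 4 eggshell genes were listed as lower, at 14121 and 4521 in sum, which also shows that the ovary libraries hold eggshell transcripts, and of 9 germline markers 0 were listed. Each sum covers the listed markers only, so its direction follows from the list, and levels of the unlisted markers were not analysed here. Of all tested entries with unique reads, 0.515% were listed as higher and 0.137% as lower. With up to 10 mappings, where these shares were 1.55% and 0.114%, 4 muscle markers were listed as higher, without bt. The counts of the other marker sets were the same. No listed marker was at 0 in either library. The part of these differences in the values of the ribosomal RNA copies, RpL28 and the snoRNA was not tested, and in whole ovaries fewer cells of a type and less RNA per cell cannot be told apart.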

How the data were processed

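Per the submitters' processing notes, build dm3 was used with DESeq 1.8.2, bedtools, Bowtie 0.12.8 and TopHat 1.4.1. Their roles and the counting rule are not given in the sources used here. Lists of entries were deposited by the authors with signal values headed baseMean, the name DESeq gives to normalized read counts, as a mean and per library. Fold is the authors' ratio, which by the values themselves is heterozygous over homozygous, and was inverted here for higher entries. The log2 column is the authors' log2 of that fold. Raw and adjusted p-values were deposited by the authors. With up to 10 mappings, 4 per-library columns have names of no sample here and were not used.

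Per-library values were whole multiples of 0.865 (homozygous) and 1.16 (heterozygous) with unique reads, in 143 of 143 values each within 0.001 read, and the values implied by mean and fold with up to 10 mappings in 394 of 394 within 0.01 read. Reads were recovered from these steps. Ratios and shares were given exact Clopper-Pearson intervals (SciPy 1.17.1), tested on simulated data. No p-values were computed here. The number of tested entries was solved from adjusted p = p × n / rank over both lists of a count, taking the most frequent whole number. Where isoforms were listed apart, the entry with the highest mean stood for the gene.

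Positions come from dm6 by FlyBase gene identifier, which matched 4 of 8 members, and were never converted from dm3. Among these 4, the listed transcripts of CR41602 and CR40596 had no match in dm6. The text names all members, other listed ribosomal RNA, ribosomal protein and snoRNA entries, and the 2 nearest features per member in log2 level. The members and lists were chosen with earlier results of these data known. The alternatives tried were no scaling, pseudocounts of 1 and 10, an adjusted p under 0.01, a change of at least 4-fold, the other read count, the isoform with the lowest mean and other shares of snoRNA reads.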

Additional observations from a re-analysis of the deposited data

How the results depend on the processing

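No paired analysis was possible because only 1 library was sequenced for either genotype. Without scaling between libraries, CR41602 and CR40596 fell 1.63-fold and 1.64-fold, RpL28 and its snoRNA rose 3.43-fold and 3.67-fold, and the remainder of RpL28 was 2.16-fold higher; these shifts follow from the depth ratio. Pseudocounts, the isoform with the lowest mean and, for RpL28 and its snoRNA, up to 10 mappings left the folds within their counting intervals. With 50% of the snoRNA reads taken off, the remainder of RpL28 was 2.43-fold higher. A change of at least 4-fold left 0 members in each list. In place of 2 higher and 2 lower members with unique reads, up to 10 mappings gave 6 and 0. An adjusted p under 0.01 left 2 higher and 0 lower members with unique reads, and with up to 10 mappings 5 higher ones, without RpL28. The count of shared sequence words was not run, because no genome sequence was used here. The remainder of RpL28 with up to 10 mappings was added after seeing the data. Depth limits the segments of RpL28 with few reads, such as the 4 and 1 unique reads between RpL28-RD and RpL28-RE.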
